A study of Danio rerio with 16 samples.

Results

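The genes described are the zebrafish tumor necrosis factor (TNF) ligand genes tnfa and tnfb, the receptor genes tnfrsf1a and tnfrsf1b, and tnfaip3, an inducible brake on the pathway. They were chosen by symbol, and each of the 5 symbols matched 1 gene ID among the 31812 genes of the table. Libraries came from wild-type WIK larvae at 5 days postfertilization. Each library was made from 1 pool of 30 whole larvae treated in a dish of its own, so the level of a gene is an average over all tissues. The 8 control pools received vehicle and the 8 treated pools received triptolide (TP) at 1.6 µM, a plant diterpene that blocks transcription by RNA polymerase II, for 6 h. The deposited labels do not say whether pools shared a clutch, so p-values measure the spread between these pools.

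TNF is made as a membrane protein, mainly by activated macrophages in vertebrates, and is shed as a soluble trimer by the protease ADAM17. Binding to the receptor encoded by tnfrsf1a assembles a complex of TRADD, RIPK1 and TRAF proteins that turns on NF-κB and MAP kinases or, when that arm fails, a caspase-8 death pathway. The second receptor, encoded by tnfrsf1b, has no death domain. NF-κB then induces its own inhibitors in mammals, among them IκBα and the ubiquitin-editing enzyme A20, the product of TNFAIP3. Zebrafish carry TNF genes on separate chromosomes, of which tnfa and tnfb are described here.

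All 5 genes passed the filter for testing, but tnfa did so only through its TP libraries, with 14 counts over all control libraries. Library depth differed widely. Library totals ran from 19679120 to 75490916 counts in control and from 26631852 to 41093922 counts in TP libraries. Every deposited count was even, and the authors kept only concordantly mapped read pairs. Where pairs are given, 2 counts are therefore read as 1 pair. All 25 genes of a list of tissue markers passed the filter on low counts. Mitochondrial transcripts held 20.3% to 24.8% of control counts and 25.0% to 29.2% of TP counts. Levels are given as CPM, the count divided by the library total and multiplied by 1000000. edgeR's quasi-likelihood test was run over all genes on the deposited counts, in which a pair holds 2 counts. Genes with an adjusted p no higher than 0.01 were called changed. By that rule 4.59% of 24462 tested genes were higher and 41.9% were lower in TP treated larvae, and the all-gene median of the log2 fold change was -0.35. Of the 5 TNF genes, 1 was higher (tnfa) and 2 were lower (tnfrsf1a and tnfaip3). With halved counts these calls held, and of 22757 tested genes 949 were higher and 10187 lower.

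The ligand gene tnfa went from nearly silent to clearly detected. It is annotated on chromosome 19 of GRCz10, from 27435209 to 27439796, with 1 transcript of 1048 bases. Control libraries 1 to 8 held 4, 2, 2, 0, 2, 2, 0 and 2 counts. TP libraries 1 to 8 held 32, 40, 100, 82, 80, 68, 60 and 60 counts. No control library therefore held more than 2 pairs, and no TP library held fewer than 16 pairs. In CPM, control values ran from 0 to 0.126 CPM (median 0.0592) and TP values from 1.02 to 2.43 CPM (median 2.08). The lowest TP libraries, replicates 1 and 2, stood at 1.02 and 1.13 CPM, above every control library. Separation of the groups in this direction held for 1.9% of tested genes. The log2 fold change was 5.10 (standard error 0.37, adjusted p = 8.4e-10 from edgeR), a fold of 34.3. In pairs, 7 in all control libraries against 261 in all TP libraries gave a ratio of 37.4 after scaling by totals, with a 95% Clopper-Pearson interval of 17.9 to 94.0 that covers counting error only. The control value is thus loosely fixed, while the TP value rests on enough pairs to compare libraries.

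The paralog tnfb was already present in control larvae and differed less. It lies on chromosome 15 from 34841616 to 34844692 with 2 transcripts. Control libraries held 26, 106, 38, 38, 14, 14, 26 and 14 counts, and TP libraries 36, 46, 32, 82, 56, 54, 68 and 62 counts. Scaled by library totals, control values ran from 0.439 to 1.40 CPM (median 0.938) and TP values from 0.779 to 2.55 CPM (median 1.62). The groups overlapped, with 5 of 8 TP libraries above the highest control library and TP library 3 below the control median. The log2 fold change was 0.78 (standard error 0.27, 95% interval 0.25 to 1.32), which did not pass the threshold (adjusted p = 0.018 from edgeR). The call turned on the scaling and on single libraries. With TMM factors, which centre most genes on no change, the log2 fold change was 1.15 and passed (adjusted p = 0.0013 from edgeR), as it did without control library 2 (0.92, adjusted p = 0.0095 from edgeR) and without TP library 3 (0.89, adjusted p = 0.0071 from edgeR).

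**Figure D1:**
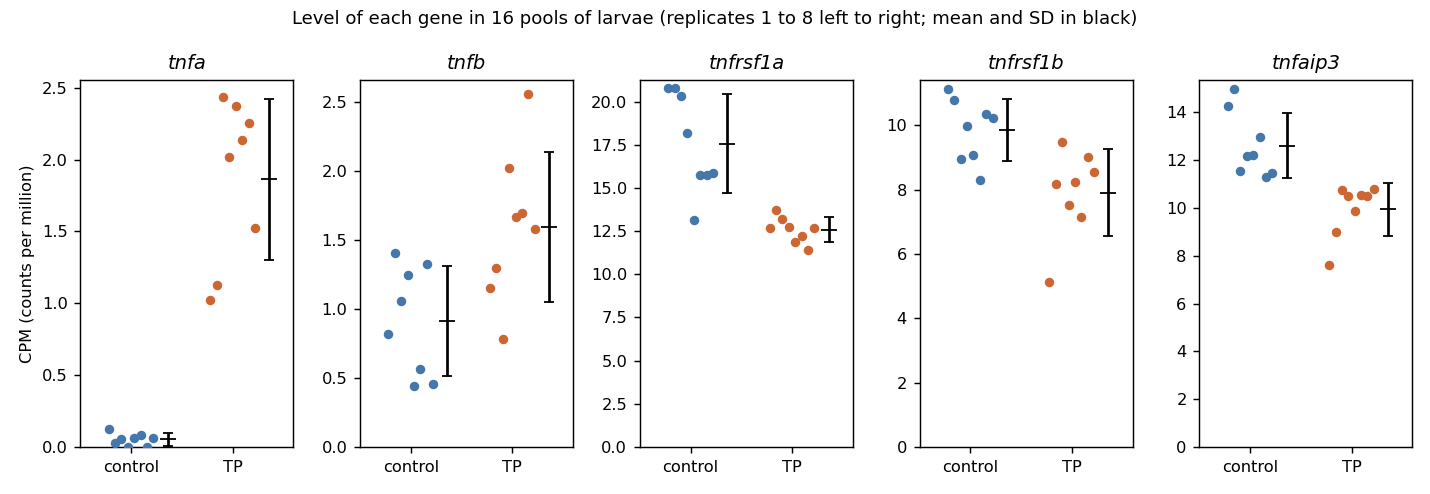
Level of each TNF gene in CPM (linear axis from 0, own scale for each gene). Each point is 1 pool of 30 larvae, replicates 1 to 8 from left to right within control (blue) and TP (orange), and black bars give the mean and SD (n = 8). The groups separate for tnfa (at most 0.126 CPM in control, at least 1.02 CPM in TP) and for tnfaip3 (at least 11.3 CPM in control, at most 10.8 CPM in TP), and overlap for the other genes. Of all tested genes, 1.9% separated with TP higher and 20.9% with TP lower.

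The balance between the ligand genes was also read inside each library, without scaling by library totals. The rise of tnfa enters this ratio, and tnfb was not lower in TP libraries. The test of the ratio therefore adds no support beyond the tnfa counts themselves. The log2 ratio of tnfb to tnfa counts, with 2 counts added to each, was 3.05 ± 1.14 in control and -0.23 ± 0.60 in TP libraries (SD, n = 8). Every control library lay at 2 or above and every TP library at 0.19 or below, a difference of -3.28 (2-sided exact permutation test, p = 0.00016, the smallest possible with 8 against 8, adjusted p = 0.00048 over 3 ratios). With 1 count added in place of 2 the difference was -3.77, and with 5 counts -2.525. As tnfa was nearly silent in control libraries, their ratio depends on the added counts and on depth. Per kilobase of transcript, tnfa made up 7.74% ± 6.71 of the summed level of both ligands in control and 53.9% ± 10.1 in TP libraries (SD, n = 8). The summed ligand level was 0.889 ± 0.364 CPM per kilobase in control and 3.28 ± 0.813 in TP libraries (SD, n = 8). The lowest TP library, at 2.07, stood above the highest control library, at 1.36, a separation that held in this direction for 1.9% of tested genes. The sum includes tnfa, and tnfb alone overlapped between the groups.

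The receptor gene tnfrsf1a, for the death-domain receptor, was lower after TP. It lies on chromosome 16 from 17154114 to 17164463 with 1 transcript. Control values ran from 13.2 to 20.8 CPM (median 17.0) and TP values from 11.4 to 13.7 CPM (median 12.7). Of the 8 TP libraries, 6 were below every control library, and only control library 5, at 13.2 CPM, reached into the TP range. The log2 fold change was -0.49 (standard error 0.09, adjusted p = 1.7e-04 from edgeR). Relative to the median of all genes it was -0.13, and with TMM factors it was also -0.13 and no longer passed (adjusted p = 0.13 from edgeR).

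The second receptor gene, tnfrsf1b, had a smaller difference that did not pass the test. It lies on chromosome 11 from 40167484 to 40193180 with 2 transcripts. Control values ran from 8.31 to 11.1 CPM (median 10.1) and TP values from 5.12 to 9.49 CPM (median 8.22). TP library 1, at 5.12 CPM, lay below the other libraries, and 5 of 8 TP libraries were under every control library. The log2 fold change was -0.32 (standard error 0.11, 95% interval -0.53 to -0.11, adjusted p = 0.015 from edgeR). It passed without TP library 3 (-0.36, adjusted p = 0.0083 from edgeR), and with TMM factors its sign turned (0.02, adjusted p = 0.86 from edgeR).

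The balance between the receptors was not shown to differ. The log2 ratio of tnfrsf1b to tnfrsf1a counts was -0.82 ± 0.22 in control and -0.68 ± 0.29 in TP libraries (SD, n = 8), a difference of 0.14 (2-sided exact permutation test, p = 0.31, adjusted p = 0.31). Without TP library 1 the difference was 0.22 with an unadjusted p = 0.044 from the same exact test. Per kilobase, tnfrsf1b gave 29.2% ± 3.56 of the summed receptor level in control and 30.5% ± 4.60 in TP libraries (SD, n = 8). That sum was 9.86 ± 1.34 CPM per kilobase in control and 7.22 ± 0.474 in TP libraries (SD, n = 8). The highest TP library, at 7.76, stood below the lowest control library, at 8.11, a separation that held in this direction for 20.9% of tested genes. Relative to the all-gene median, the log2 fold changes of tnfrsf1a and tnfrsf1b were -0.13 and 0.03.

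**Figure D2:**
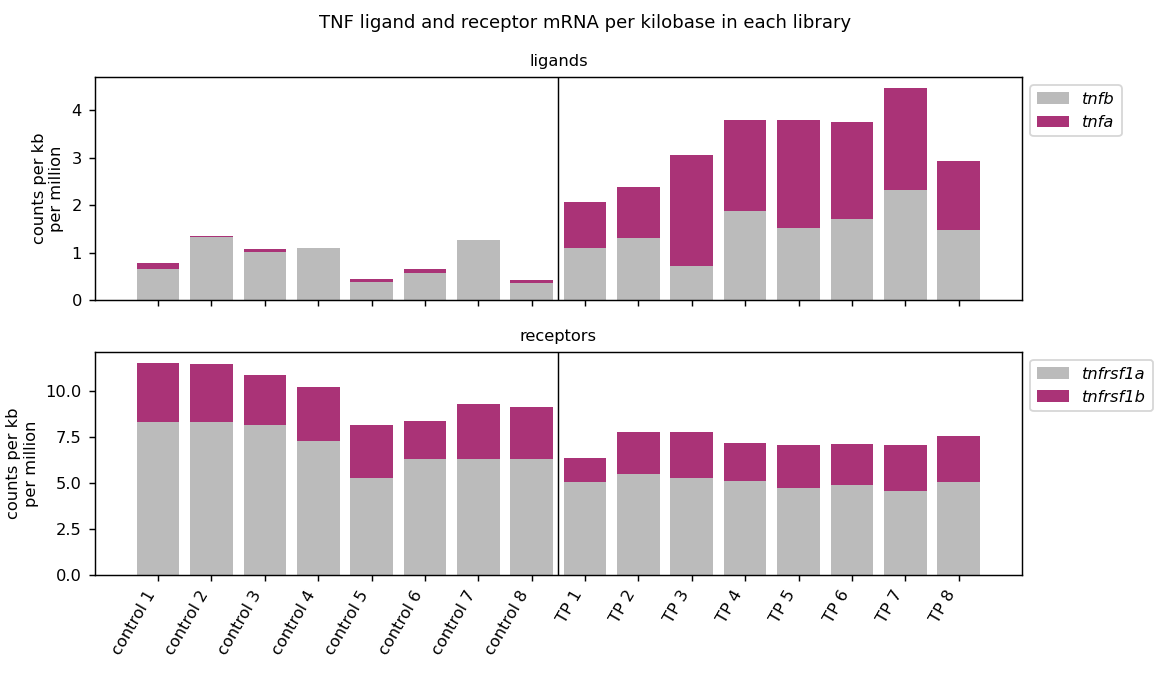
Stacked levels of the ligand genes (top) and receptor genes (bottom) in each library, in CPM per kilobase of transcript, with axes from 0 and control libraries left of the vertical line. tnfa took 7.74% of the ligand level on average in control and 53.9% in TP libraries, while tnfrsf1b took 29.2% and 30.5% of the receptor level.

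tnfaip3, whose mammalian product A20 shuts off TNF signals to NF-κB, was lower with library totals and near 0 with scalings centred on most genes. It lies on chromosome 13 from 1051036 to 1078837 with 2 transcripts, inside the span of ppp3r1a, a calcineurin subunit gene. TP over control, ppp3r1a was at 0.15 on the log2 scale (adjusted p = 0.19 from edgeR). Control values of tnfaip3 ran from 11.3 to 15.0 CPM (median 12.2) and TP values from 7.61 to 10.8 CPM (median 10.5). The groups did not overlap, as for the receptor sum, and separation in this direction held for 20.9% of tested genes. TP libraries 1 and 2, the lowest for tnfa, were also the lowest for tnfaip3, at 7.61 and 8.97 CPM. The log2 fold change was -0.35 (standard error 0.09, adjusted p = 0.0025 from edgeR), which differed from the median of all genes by 0.0055. With TMM factors it was -0.00080 (adjusted p = 0.99 from edgeR), and with DESeq2 size factors the sign turned (0.0043). With totals that left out mitochondrial and ribosomal RNA it was -0.26 and did not pass (adjusted p = 0.015 from edgeR). The log2 ratio of tnfaip3 to tnfrsf1a was -0.47 ± 0.21 in control and -0.34 ± 0.21 in TP libraries (SD, n = 8), a difference of 0.12 (2-sided exact permutation test, p = 0.26, adjusted p = 0.31).

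Levels of different genes were compared per kilobase. In control libraries the order by median was tnfrsf1a (6.78 CPM per kilobase), tnfaip3 (4.78), tnfrsf1b (2.91), tnfb (0.840) and tnfa (0.0565). Only tnfrsf1a and tnfaip3 had overlapping ranges among neighbours in that order. In TP libraries the order was tnfrsf1a (5.06 CPM per kilobase), tnfaip3 (4.11), tnfrsf1b (2.31), tnfa (1.98) and tnfb (1.498). There tnfa overlapped both tnfrsf1b above it and tnfb below it. tnfa thus moved from the bottom of the order to a level within the spread of tnfb and tnfrsf1b.

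The annotated transcripts of each gene gave the same directions. In the test over transcripts, 3.48% of 43770 were higher and 36.7% lower by the same threshold. The longer tnfb transcript held 79.6% ± 15.5 of its counts in control and 71.9% ± 7.66 in TP libraries (SD, n = 8). Its log2 fold change was 0.68 and that of the shorter one 1.03 (adjusted p = 0.041 and 0.065 from edgeR), so neither passed. For tnfrsf1b the log2 fold changes of the transcripts were -0.28 and -0.48 (adjusted p = 0.036 and 0.037 from edgeR). For tnfaip3 the more abundant transcript passed (-0.40, adjusted p = 0.0025 from edgeR) and the other did not (-0.26, adjusted p = 0.13 from edgeR). Transcripts of 1 gene can share sequence, and the sources used here do not say how shared reads were assigned.

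The libraries were split into sets that the labels do not name. The gene si:dkey-153m14.1, known only by its clone name, took under 2% of counts in control libraries 1 to 4 and TP libraries 3 and 4, and at least 2% in the other 4 control and 6 TP libraries. Control shares lay apart, at 0.5484% to 0.9225% and at 3.378% to 6.422%. TP shares showed no such gap, with 1.406% in TP library 4, 2.158% in TP library 2 and 2.179% in TP library 1. tnfrsf1a followed this split among control libraries, with 18.2 to 20.8 CPM in those of low share and 13.2 to 15.8 CPM in those of high share. Within the low-share libraries the log2 fold change of tnfrsf1a was -0.63 (adjusted p = 0.012 from edgeR), and within the high-share libraries -0.28 (adjusted p = 0.019 from edgeR), neither past the threshold. The tnfb control ranges of the sets overlapped, and its log2 fold change was 0.29 in the low-share (adjusted p = 0.60 from edgeR) and 1.30 in the high-share libraries (adjusted p = 0.0053 from edgeR). tnfrsf1b was at -0.26 and -0.30 and tnfaip3 at -0.32 and -0.30, none of them past the threshold within a set. tnfa was at 5.47 in the low-share (adjusted p = 7.4e-04 from edgeR) and 4.87 in the high-share libraries (adjusted p = 1.2e-06 from edgeR). The low-share set held only 2 TP libraries, and whether the effects differed between the sets was not tested. A fit of all libraries with the set as a term kept the calls of tnfa, tnfrsf1a and tnfaip3. There tnfrsf1a was at -0.41 (adjusted p = 2.4e-04 from edgeR) and tnfaip3 at -0.31 (adjusted p = 0.0052 from edgeR). In that fit tnfb (0.90, adjusted p = 0.015 from edgeR) and tnfrsf1b (-0.29, adjusted p = 0.031 from edgeR) did not pass.

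**Figure D3:**
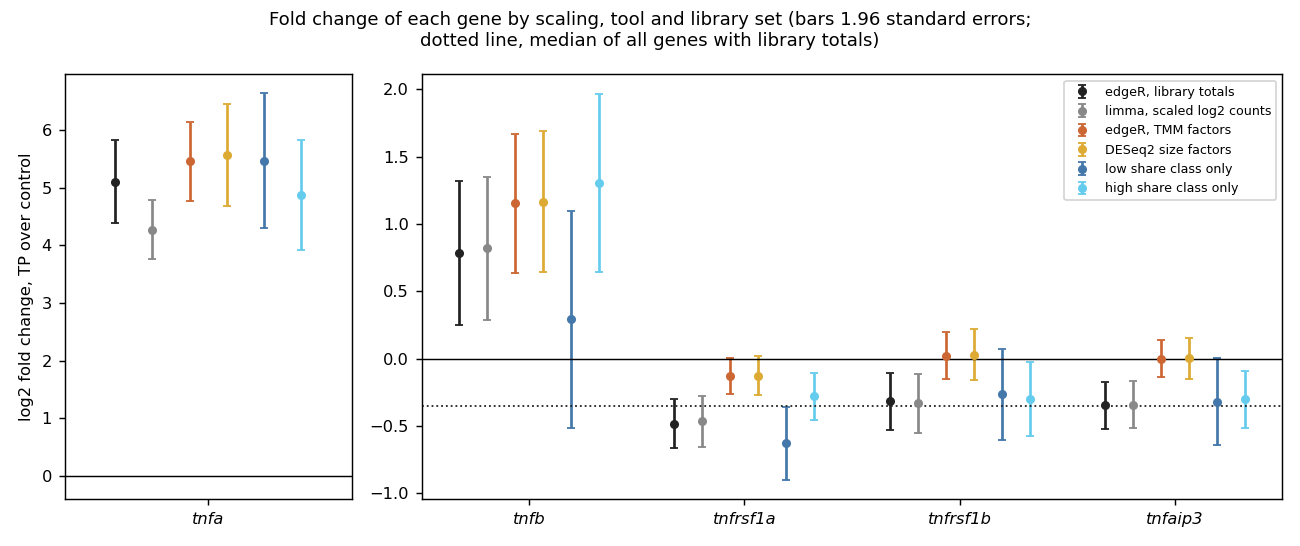
Log2 fold change (TP over control) of each TNF gene under 2 scalings by totals (black, edgeR; grey, limma), 2 scalings centred on most genes (orange, TMM; yellow, DESeq2) and within libraries of low or high si:dkey-153m14.1 share (dark and light blue), with bars of 95% intervals and tnfa on its own axis. The tnfa estimates are all above 4, tnfb lies above 0 with intervals that reach it only in the low-share libraries, and tnfrsf1b and tnfaip3 lie near the all-gene median of -0.35 (dotted) with totals and near 0 with TMM and DESeq2. The tnfrsf1a estimates are all below 0, with intervals that reach it under TMM and DESeq2.

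Among pools of 1 group the TNF genes were not shown to move together. Of 20 correlations of log2 CPM between pairs of these genes, taken within control or within TP libraries (n = 8 each), none passed after adjustment (lowest adjusted p = 0.28, exact permutation test). At an unadjusted p under 0.05 there were 2. The largest was that of tnfa with tnfaip3 in TP libraries, with Pearson's r = 0.80 (p = 0.024) and Spearman's rho = 0.48 (p = 0.24), both exact permutation tests. It rested on TP libraries 1 and 2, without which r was -0.45. The other was tnfrsf1b with tnfaip3 in TP libraries, with r = 0.80 (p = 0.047) and rho = 0.60 (p = 0.13), again by exact permutation tests, and r was -0.067 without TP libraries 1 and 3.

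Across all 16 libraries the genes whose log2 CPM followed tnfa most closely were b4galnt2.2 (r = 0.97), taar20t (r = 0.97) and senp6b (r = 0.97), out of 16791 named genes with at least 1 CPM in a group. The points share their group, depth and scaling. With group means subtracted, the closest to tnfa were pcdh2g3 (r = 0.83), map2k7 (r = 0.83) and DTX1 (r = 0.80). As control libraries held at most 4 tnfa counts, their log2 values depend on the count added before taking logs and on depth. For tnfb the closest were SYCE3, trim25 and taar20x across all libraries (r = 0.89, 0.82 and 0.80). For tnfrsf1a they were XPO5, rab10 and ppp6r3 (each r = 0.97), for tnfrsf1b rims2b, dyrk1aa and rab3gap1 (r = 0.92, 0.91 and 0.91), and for tnfaip3 znf1012, sptlc3 and ap1s3a (r = 0.95, 0.95 and 0.94). With group means subtracted, the genes at the top were pfkfb1, SYCE3 and otulina for tnfb (r = 0.88, 0.84 and 0.83), cyp8b1, rab10 and pla2g12b for tnfrsf1a (r = 0.93, 0.93 and 0.92), fam83c, rims2b and gna15.1 for tnfrsf1b (r = 0.91, 0.90 and 0.88), and tmem125b, pdgfba and haus1 for tnfaip3 (r = 0.94, 0.94 and 0.93). These coefficients describe the 16 libraries and carry no test.

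With library totals, genes that carry or restrain the receptor signal were lower in a share near that of all genes, and 0 were called higher. Of 44 genes of the receptor complex and death pathway, 0 rose and 15 fell in the edgeR test, which 29 did not pass (1 was higher at an unadjusted p under 0.05, 0 with limma, 10 with TMM factors and 10 with DESeq2). That was 0% higher against 4.59% of all genes and 34.1% lower against 41.9%, with a median log2 fold change of -0.28 against -0.35. The symbol otulina entered under more than 1 gene ID. With TMM factors 5 were lower, and with DESeq2 also 5, fewer than were higher. casp3a, an executioner caspase gene, averaged 94.0 ± 10.5 CPM over control and 45.3 ± 2.75 CPM over TP libraries (SD, n = 8), a log2 fold change of -1.05 (adjusted p = 4.1e-10 from edgeR). rnf31, for the catalytic subunit of the linear ubiquitin ligase that marks the receptor complex, had a log2 fold change of -0.75 (adjusted p = 2.1e-05 from edgeR). Of the genes for the sheddase that frees TNF, adam17a was at 0.08 (adjusted p = 0.37 from edgeR) and adam17b fell by 0.37 on the log2 scale (adjusted p = 0.0016 from edgeR), near the all-gene median. With TMM factors adam17b was at -0.02 and did not pass (adjusted p = 0.84 from edgeR), while adam17a was at 0.42 (adjusted p = 2.1e-06 from edgeR).

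In the NF-κB arm, 10 of 14 genes fell, 0 rose and 4 did not pass, with a median log2 fold change of -0.37. That was 71.4% lower against 41.9% of all genes, but with TMM factors 1 was higher and 1 lower. Among the genes with higher values 1 had an unadjusted p under 0.05, and limma called 0 and DESeq2 1. map3k14a, for the kinase NIK of the non-canonical branch, had a log2 fold change of -0.72 (adjusted p = 7.2e-07 from edgeR). nfkbiaa, for the NF-κB inhibitor IκBα, averaged 31.2 ± 6.76 CPM over control and 18.8 ± 1.36 CPM over TP libraries (SD, n = 8), a log2 fold change of -0.73 (adjusted p = 1.3e-05 from edgeR), and with TMM factors it was at -0.41 and did not pass. nfkbiaa and tnfaip3, which NF-κB induces in mammals, were both lower with library totals, as were 41.9% of all genes. With TMM factors neither passed, with nfkbiaa at -0.41 and tnfaip3 at -0.00080. With DESeq2 size factors nfkbiaa was at -0.40 and passed (adjusted p = 0.0095 from DESeq2), while tnfaip3 was at 0.0043.

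Other members of the TNF superfamily went both ways. Of 9 other ligand genes tested, 2 rose and 3 fell, or 22.2% and 33.3% against 4.59% and 41.9% of all genes. The ligand gene tnfsf11, for the bone-resorption signal RANKL, averaged 1.36 ± 0.374 CPM over control and 3.32 ± 0.824 CPM over TP libraries without overlap (SD, n = 8), a log2 fold change of 1.27 (adjusted p = 1.2e-05 from edgeR). Separation in this direction held for 1.9% of tested genes, and tnfsf11 was named for its rank in the list. cd40lg, a ligand of activated T cells, was at 0.405 ± 0.152 CPM and 1.32 ± 0.370 CPM, or 1.73 on the log2 scale (adjusted p = 7.8e-06 from edgeR). As with tnfa, cd40lg passed the filter only through its TP libraries. The death ligand genes tnfsf10 and tnfsf10l3 were lower, with log2 fold changes of -0.89 and -1.38 (adjusted p = 9.5e-09 and 6.8e-05 from edgeR). Of these, tnfsf10l3 passed the filter only through its control libraries. Another 5 ligand genes had too few counts to be tested. One of them, lta, was picked out after its values were seen, with 10 counts in all control and 88 in all TP libraries, and with 0 counts in TP library 4.

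Of 16 other receptor genes tested, 3 rose and 5 fell, or 18.8% and 31.2% against 4.59% and 41.9% of all genes. With TMM factors 4 were higher and 2 lower. tnfrsf9b, a costimulatory receptor gene, averaged 0.280 ± 0.112 CPM over control and 1.33 ± 0.484 CPM over TP libraries without overlap (SD, n = 8), a difference of 2.28 on the log2 scale (adjusted p = 5.8e-06 from edgeR). This gene passed the filter only through its TP libraries. Separation in this direction held for 1.9% of tested genes. The death receptor gene fas had a log2 fold change of 0.98 (adjusted p = 9.7e-04 from edgeR), which within the low-share libraries was 0.15 (adjusted p = 0.76 from edgeR). The third that rose was tnfrsf25, with 0.93 (adjusted p = 7.2e-04 from edgeR), named after its values were seen. The largest decreases were those of tnfrsf21 and tnfrsf11a, the latter the receptor gene for tnfsf11, with log2 fold changes of -0.80 and -0.73 (adjusted p = 4.2e-06 and 5.5e-07 from edgeR).

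Genes listed as TNF-induced targets were mostly lower with library totals. The list held tnfaip8-like genes, whose induction by TNF was not checked, and socs3a under more than 1 gene ID. Some of its genes, among them nfkbiaa, were also counted in the lists of the receptor complex or the NF-κB arm. mmp13a was also counted among the neutrophil markers. Of 32 tested, 2 rose, 19 fell and 11 did not pass, with a median log2 fold change of -0.61, against 6 higher and 13 lower with TMM factors. That was 59.4% lower against 41.9% of all genes. The share that rose, 6.25%, was near the 4.59% of all genes. The genes that rose were both inflammatory effectors of low level, and both passed the filter only through their TP libraries. nos2b, an inducible nitric oxide synthase gene, averaged 0.460 ± 0.169 CPM over control and 4.74 ± 1.58 CPM over TP libraries without overlap (SD, n = 8), a log2 fold change of 3.42 (adjusted p = 1.6e-09 from edgeR). Among all tested genes, 1.9% separated in this direction. il1b, for the cytokine interleukin-1β, had a log2 fold change of 1.93 (adjusted p = 8.0e-05 from edgeR). Without control library 2, which held the highest control value, it was 2.62, a fold of 6.13 in place of 3.81. Among those that fell were the stress gene gadd45ba (-1.75, adjusted p = 1.6e-07 from edgeR) and the collagenase gene mmp13a (-2.63, adjusted p = 7.9e-08 from edgeR). mmp13a passed the filter only through its control libraries.

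**Figure D4:**
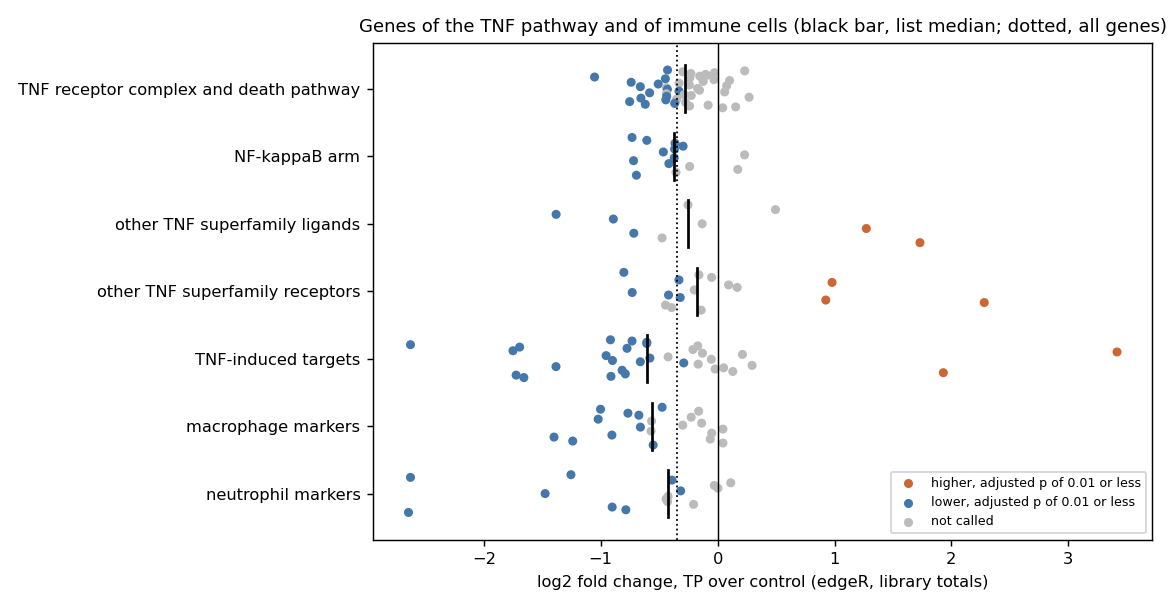
Log2 fold change (TP over control, edgeR with library totals) of each tested gene in 5 lists of the TNF pathway and 2 lists of immune cell markers. Each point is a gene, orange where higher, blue where lower and grey where not called. Black bars mark list medians and the dotted line the all-gene median of -0.35. Signalling lists sit near that line, while the orange points are 2 ligand, 3 receptor and 2 target genes. Of all tested genes, 4.59% were called higher and 41.9% lower.

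Some markers of macrophages and neutrophils were lower in the same libraries. Of 20 macrophage markers tested, 10 fell, 10 did not pass and 0 rose (0 higher at an unadjusted p under 0.05, with limma, with TMM factors and with DESeq2). That was 50% lower against 41.9% of all genes, with a median log2 fold change of -0.56 against -0.35, and 5 were lower with TMM factors. mfap4 and grn2, macrophage genes, had log2 fold changes of -1.24 and -1.40 (adjusted p = 3.6e-06 and 1.8e-06 from edgeR). The summed level of the list ran from 139.8 to 174 CPM in control and from 105.1 to 135.9 CPM in TP libraries. Separation in this direction held for 20.9% of tested genes. The largest part of the sum was csf1rb, which averaged 51.5 CPM in control and 46.8 CPM in TP libraries and was not called. Of 15 neutrophil markers tested, 8 fell, 7 did not pass and 0 rose (0 higher at an unadjusted p under 0.05 and with limma, 1 with TMM factors and 1 with DESeq2). That was 53.3% lower, with a median of -0.43, and 6 were lower with TMM factors. Among them scpp8 had a log2 value of TP over control of -2.65 (adjusted p = 7.7e-05 from edgeR). It passed the filter only through its control libraries. The summed level of that list was 1028 to 1296 CPM in control and 1119 to 1390 CPM in TP libraries. That sum mostly follows 1 gene, cpa5, which averaged 1023.4 CPM in control, and is not read as a neutrophil level. Without cpa5, set aside after seeing the data, the sum was 105.7 to 165.9 CPM in control and 77.57 to 88.22 CPM in TP libraries. Such a separation held for 20.9% of tested genes. No marker of either list was at 0 in all libraries. Markers of other tissues moved in these libraries too. Of the 25 tissue markers, 5 rose and 6 fell (12 higher and 1 lower with TMM factors). That was 20% higher against 4.59% of all genes, and 24% lower against 41.9%. Among them were tfa and fabp10a of the liver (log2 fold changes 0.43 and 0.38), fabp2 of the gut (-0.54) and podxl (-0.83), with adjusted p of 8.1e-04, 8.0e-05, 6.7e-05 and 3.8e-10 from edgeR. With TMM factors fabp2 was at -0.19 and did not pass. In pooled larvae fewer cells of a type and less RNA per cell cannot be told apart, and the part of these markers in the TNF values was not tested.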

How the data were processed

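RNA from whole larvae was sequenced as read pairs by the authors, who aligned it to zebrafish transcripts (GRCz10) with Bowtie2 and kept concordant pairs. The submitters' processing notes also name FastQC, SAMtools and limma, with versions not given in the sources used here. As deposited, the values are raw counts per transcript, 57264 in all, and all were even. The sources used here do not say if counts were strand-specific. Counts were summed by gene ID. The 209 transcripts without one held 0.2201% to 0.2817% of counts and stayed in the totals only.

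Genes kept by the filterByExpr function of edgeR with its default settings (24462) were tested with edgeR 4.0.16 (quasi-likelihood, no TMM factors, Benjamini-Hochberg adjustment, R 4.3.3). An adjusted p of 0.01 or less was a call. Alternatives were a filter of at least 10 counts in at least 8 libraries, no filter, TMM factors, DESeq2 1.42.0 and limma 3.58.1. Another threshold, halved counts, totals without mitochondrial and ribosomal RNA, library subsets, the low or high share set as a term and left-out libraries were used as well. Ratios within libraries and correlations used 2-sided exact permutation tests. CPM and log2 CPM (prior count 2) used library totals.

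Besides the 5 TNF genes, the text names the 2 highest and 2 lowest called genes of each list, and the 3 genes most correlated with each TNF gene. tnfrsf25, lta, adam17a, adam17b, csf1rb and ppp3r1a were named outside this rule, after their values were seen. The sum without cpa5 was added after seeing the data. The members and lists were chosen with earlier results of these data known.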

Additional observations from a re-analysis of the deposited data

Results flagged for a closer look

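In 62 groups of 8 values, those of the within-library ratios, the TNF genes and the named list genes, 8 held a library set far apart from the others, by a gap that exceeded the 95% limit of Dixon's test. Chance flags about 1 in 20 groups.

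The log2 ratio of tnfb to tnfa was lowest in TP library 3, at -1.59 with the next TP library at -0.50. That library held the highest tnfa level and the lowest tnfb level of the TP libraries. The log2 ratio of tnfrsf1b to tnfrsf1a was lowest in TP library 1, at -1.30 with the next at -0.77. The same library had the lowest tnfrsf1b, tnfaip3 and tnfa levels of its group.

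Control library 2, the most deeply sequenced, was highest for il1b at 1.59 CPM (next 0.453 CPM), for the collagenase gene mmp13a at 9.01 CPM (next 5.03 CPM) and for scpp8 at 4.56 CPM (next 1.83 CPM). It also had the highest tnfb and tnfaip3 levels of the control libraries. Control library 1 was highest for rnf31 at 15.7 CPM (next 11.5 CPM) and for tnfrsf21 at 19.2 CPM (next 14.2 CPM). TP library 4 was highest for nfkbiaa at 21.7 CPM (next 19.0 CPM).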

How the results depend on the processing

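The call for tnfa held under each of 13 alternatives and with each library left out (log2 fold change 4.91 to 5.40). The other TNF genes moved with the scaling. With TMM factors the log2 fold changes were 1.15 for tnfb (now past the threshold), -0.13 for tnfrsf1a and -0.00080 for tnfaip3 (both no longer past it), and tnfrsf1b turned to 0.022. With DESeq2 size factors they were 1.17 for tnfb (now past the threshold), -0.13 for tnfrsf1a (no longer past it), and tnfrsf1b and tnfaip3 turned to 0.029 and 0.0043. The median of all genes, -0.35 with totals, was -0.0011 with TMM factors. Totals without mitochondrial and ribosomal RNA put tnfaip3 at -0.26, no longer past the threshold. At an adjusted p of 0.05 tnfb (0.78) and tnfrsf1b (-0.32) passed as well. In the low-share libraries tnfrsf1a (-0.63) and tnfaip3 (-0.32) did not pass, nor did tnfrsf1a (-0.28) and tnfaip3 (-0.30) in the high-share libraries, where tnfb did (1.30). Fewer libraries entered these fits. In the fit of all libraries with the set as a term, each TNF gene kept its call. Left-out libraries gave ranges of 0.66 to 0.92 for tnfb, -0.54 to -0.45 for tnfrsf1a, -0.36 to -0.25 for tnfrsf1b and -0.37 to -0.30 for tnfaip3. With libraries left out, the within-library ratio differences ranged over -3.43 to -3.04 for tnfb to tnfa, 0.085 to 0.22 for tnfrsf1b to tnfrsf1a and 0.073 to 0.18 for tnfaip3 to tnfrsf1a. The difference for tnfb to tnfa moved more with the added counts, to -3.77 with 1 count and -2.525 with 5 counts.

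Genes called higher over the whole table numbered 1122, against 3895 with TMM factors, 4813 with DESeq2 and 589 in the low-share libraries. Those called lower numbered 10258, against 4038, 4369 and 2244, and 6370 in the high-share libraries. With library totals, 4.59% of all tested genes were higher and 41.9% lower. The TNF pathway lists held 120 distinct genes, of which some were not tested. They had 7 higher genes, against 23, 26 and 4, and 49 lower genes, against 22, 23 and 11, and 31 in the high-share libraries. The marker lists held 20 macrophage and 15 neutrophil genes tested. They had 0 higher genes, against 1 with TMM factors and 1 with DESeq2, and 18 lower genes, against 11, 11 and 7. In the low-share libraries the log2 fold changes of rnf31 (-0.87), tnfrsf21 (-0.87) and scpp8 (-4.50) were larger in size but did not pass. Those of nfkbiaa (-0.41), il1b (1.62), gadd45ba (-1.23), mfap4 (-1.07), grn2 (-1.19) and fas (0.15) were smaller and did not pass, nor did tnfsf10l3 (-0.96) in the high-share libraries. Apart from fewer libraries, the cause of these changes was not tested.

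The library titles end in numbers that control and TP libraries share. The deviations of same-numbered libraries correlated at r from -0.14 to 0.22. For 3 of 8 numbers r was over 0.1 and the TP library was closest to its own number, which the other 5 did not show, so the libraries were not treated as pairs. With that number as a replicate block tnfaip3 was at -0.35 with adjusted p = 0.014 from edgeR, not past the threshold, 1100 genes were higher and 9602 lower, and the other TNF genes kept their calls. Depth limits the control value of tnfa, which rests on 14 counts.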
